A study of Taeniopygia guttata with 39 samples.

Results

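The HVC of adult female canaries that had carried a testosterone implant for 3 d was compared with the HVC of birds that carried an empty implant. The comparison takes in 11 of the 39 arrays of the series, 6 from 3-day birds and 5 from controls, chosen by the treatment given in the labels, and it covers every one of the 26061 entries of the deposited value table. Each array held RNA of 1 bird labelled as a biological replicate. Entries carry transcript-type identifiers and are called transcripts here; 2227 genes could be given an official symbol.

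All birds were adult, female and non-breeding, and lived under a short light cycle of 9 h light and 15 h dark. The implant was a 7-mm Silastic tube under the skin over the breast muscle, filled with testosterone in treated birds. Controls and 3-day birds are both labelled as non-singing, so that the 3-day group is the longest treatment in the series before birds labelled as singing at 7 d and 14 d. The other 28 birds had testosterone for 1 h, 3 h, 8 h, 7 d or 14 d. HVC was picked by forceps from brain sections under a stereo-microscope. Canaries are named in the design text, and the zebra finch in the organism field.

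HVC is a nucleus of the songbird forebrain that drives learned song, and its neurons respond to sex steroids. Testosterone acts in the brain as an androgen and, after conversion to estradiol by aromatase, through estrogen receptors, which are transcription factors that move gene expression over hours to days. Female canaries seldom sing spontaneously, and testosterone is known to bring them to sing and to enlarge their HVC.

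After 3 d, few genes stood apart from controls. The translation helicase gene EIF4A2 had the smallest p of the named genes and was 1.76-fold higher in controls than in 3-day birds. SMU1, a splicing factor gene, was 2.29-fold higher in controls, the greatest fall among named genes, at a level near the lower end of the arrays. The genes PLEK2, BRINP1 and BTBD3, which take part in the cytoskeleton and in neuron shape and differentiation, rose by 1.54- to 1.83-fold. The other 11 named genes that passed, all lower, were ABL1, ACTR10, ATMIN, ARV1, DIPK1B, DNAJC10, HTR2C, DPP6, MSMO1, CTSD and SLC25A16. HVC was measured as bulk tissue, in which fewer cells of a type and less RNA per cell cannot be told apart. The fit was made with limma over all 39 arrays, and a transcript passed, or was called, at a Benjamini-Hochberg adjusted p under 0.05 over all 26061 transcripts.

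Of all transcripts, 273 were called (1.05%), 107 of them higher at 3 d (0.411%) and 166 lower (0.637%). At an unadjusted p under 0.05 there were 3029 (11.6%). The same fit called 8.44% of transcripts at 1 h, 28.6% at 3 h, 7.21% at 8 h, 7.87% at 7 d and 50% at 14 d against the same controls. Array medians averaged 7.59 in controls, 7.57 at 3 d and 7.58 at 8 h, but 7.69 to 7.82 at the other durations. The part of these medians in the percentages was not tested. The changes at 3 d were small. The median absolute log2 change of the called transcripts was 0.57, and 90 of the 273 (33%) had one under 0.5. A fold of at least 1.5 was reached by 125, and a fold of at least 2 by 22, of which 16 were higher and 6 lower. Over all transcripts the median log2 change was -0.01, the 5th and 95th percentiles were -0.35 and 0.34, and the median standard error (SE) was 0.15. Calls came more often from bright transcripts, with 116 among the brightest 6515 by mean level (1.78%) and 22 of the 6516 dimmest (0.338%).

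**Figure D1:**
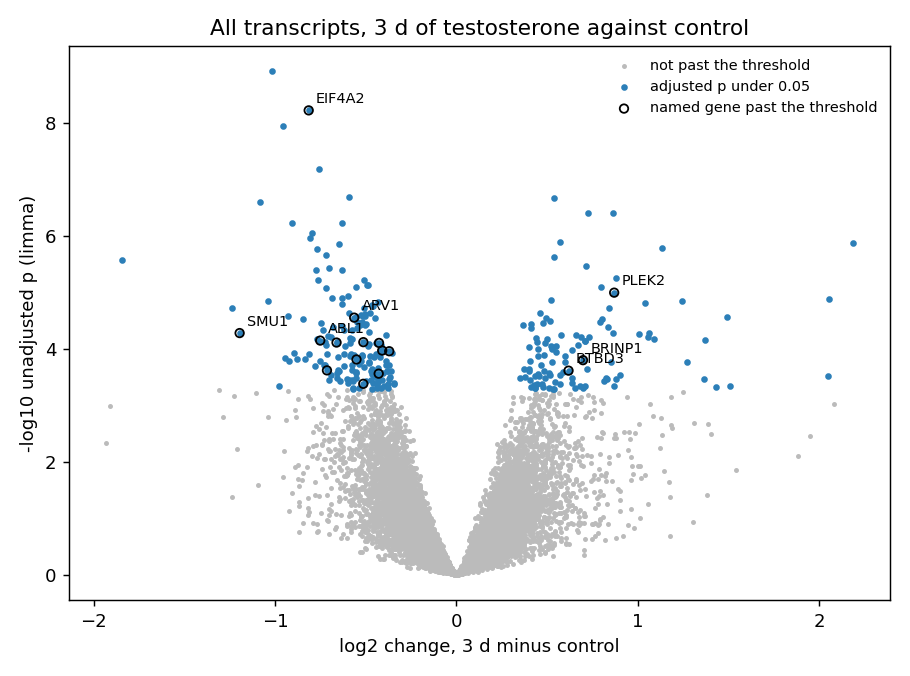
Each point is 1 of 26061 transcripts, with the log2 change at 3 d against control on the horizontal axis and the -log10 of the unadjusted limma p on the vertical axis. Blue points are the 273 past an adjusted p of 0.05, and circles mark the 16 named genes among them, with EIF4A2 highest of these.

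Values of the 6 treated and the 5 control birds did not overlap in 178 of the 273 called transcripts, 62 of the 107 that were higher and 116 of the 166 that were lower. Among all 26061 transcripts the groups did not overlap in 3.12%, with 1.38% higher and 1.75% lower at 3 d. Of the 16 named genes that passed (0.718% of 2227), 14 did not overlap, and BRINP1 and ACTR10 did. The calls rest on these same values, so the larger share without overlap among called transcripts is not separate support for them.

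The number of calls depended on single arrays. It was 117, 139 and 117 without control replicates 1, 2 and 3, and 148, 131 and 139 without 3-day replicates 1, 3 and 4. It was 714 when replicate 2 of the 3-hour group, which is in neither group but enters the shared variance and correlated least with the other arrays (median r 0.886), was left out of the fit. With any 1 of the 11 arrays left out in turn, 68 transcripts passed every time, EIF4A2 and PLEK2 among them. In a fit of only the 11 arrays, ABL1, ACTR10, BRINP1, CTSD and DPP6 did not pass, and with quantile normalization DIPK1B, DNAJC10, DPP6 and HTR2C did not. Array medians were 7.57 ± 0.06 (SD, n = 6) at 3 d and 7.59 ± 0.08 (n = 5) in controls, a difference of -0.01 with p = 0.725 in a two-sided exact permutation test. Pearson's r between arrays over all transcripts was 0.979 to 0.993 within the 3-day group, 0.982 to 0.991 within controls and 0.977 to 0.989 across them.

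Treatment also went with the numbering of the birds. The titles number the controls in a range that lies wholly above that of the 3-day birds and of all other treated birds, so group and number range cannot be told apart. A letter ends the number in most titles. It was L for 4 controls and R for 1, and L for 3, R for 1 and absent for 2 of the 3-day birds. The labels do not say what it stands for. With only letter L birds in both groups (3 against 4) the fit called 53 transcripts, with PLEK2, EIF4A2, ABL1 and HTR2C among them, and with the letter as a term 151, without ATMIN, BRINP1, BTBD3, CTSD, DIPK1B, DNAJC10, DPP6, MSMO1 and SLC25A16.

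Among genes of protein synthesis, EIF4A2 encodes an ATP-dependent RNA helicase of the complex that unwinds the leader of messenger RNAs before ribosomes bind. Its log2 level was 12.76, 12.69, 12.56, 12.87 and 12.70 in control replicates 1 to 5, and its lowest, median and highest values at 3 d were 11.65, 11.91 and 12.21. All 6 treated birds lay below all 5 controls, with a gap between the groups and a narrower spread in controls. The mean fell from 12.72 ± 0.11 (SD, n = 5) to 11.90 ± 0.22 (n = 6), a log2 change of -0.81 ± 0.11 (SE; limma adjusted p = 7.88e-05). The call remained in all 24 alternatives, with changes from -0.88 to -0.76. Against the same 5 controls the other durations measured -0.59 at 14 d to -0.999 at 8 h, and the 3-day level stood -0.05 from the mean of the other durations (adjusted p = 0.625).

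EIF4A2 was the 1 called gene among 19 measured translation initiation and elongation factors. The median log2 change of that list was -0.04, with 6 genes above 0 and 13 below. EIF2B1, a subunit of the exchange factor that recharges initiation factor 2, measured 0.33 (adjusted p = 0.257), and EIF3L, a subunit of initiation factor 3, measured -0.21 (adjusted p = 0.526). Of 10 ribosomal protein genes limma called none (2 at an unadjusted p under 0.05), 8 lay above 0 and the median was 0.13, with RPL17 at 0.38 and RPS20 at 0.23.

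SMU1 encodes a protein of the spliceosome that helps to activate it. Control birds measured 4.53, 4.02, 4.44, 3.81 and 4.36, and 3-day birds 2.46 at the lowest, 3.00 in the median and 3.56 at the highest. The groups did not overlap, but 5 of the 11 values lay under the 5th percentile of their own array (3.47 to 3.64 over the 11 arrays), so the size of its change is poorly fixed. The mean fell from 4.23 ± 0.30 (SD, n = 5) to 3.04 ± 0.44 (n = 6), a log2 change of -1.20 ± 0.26 (SE; limma adjusted p = 0.0159). Without control replicate 1 or 3 the adjusted p was 0.0538 to 0.0612.

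SMU1 was the 1 called gene of 26 measured splicing factors, whose median log2 change was -0.03, with 12 above 0 and 14 below. TRA2B, which binds exonic enhancers, measured -0.26 (adjusted p = 0.183), and PRPF18, a factor of the second splicing step, 0.38 (adjusted p = 0.272).

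Among 20 genes of protein folding, DNAJC10 was called. It encodes a disulfide reductase of the endoplasmic reticulum that works with the chaperone BiP. Levels were 5.58, 5.43, 5.76, 5.42 and 5.46 in controls, and 4.80, 5.05 and 5.22 at the lowest, median and highest of the 3-day birds. The groups did not overlap. The log2 change was -0.51 ± 0.13 (SE; limma adjusted p = 0.0441), the weakest p of the 16, and it missed the threshold when any 1 of 10 of the 11 arrays was left out (3-day replicate 5 excepted; adjusted p 0.0518 to 0.144). Against the same controls DNAJC10 measured -0.41 at 1 h, -0.50 at 3 h, -0.55 at 8 h, -0.28 at 7 d and -0.55 at 14 d. It passed at each of these but 7 d. The median of the list was 0.00, and HSPH1, a cytosolic heat shock protein, measured -0.32 (adjusted p = 0.256). Of 5 proteasome genes limma called none (1 at an unadjusted p under 0.05), with 4 of them below 0 and a median of -0.29.

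Genes of the cytoskeleton and of neuron form held both directions. PLEK2 encodes a pleckstrin-family protein that binds membrane phosphoinositides and takes part in actin arrangement and cell spreading. Controls measured 7.96, 7.51, 8.30, 8.20 and 7.56, and the 3-day birds 8.51 at the lowest, 8.74 in the median and 9.07 at the highest. Every treated bird was above every control. The mean rose from 7.90 ± 0.36 (SD, n = 5) to 8.78 ± 0.23 (n = 6), by 0.87 ± 0.17 on the log2 scale (SE; 1.83-fold; limma adjusted p = 0.00775), and the call remained in all 24 alternatives. Against the same controls the other durations measured 0.49 at 14 d to 1.01 at 3 h.

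BTBD3 encodes a BTB-domain protein that, in the mouse cortex, turns dendrites toward active axons. Its levels were 10.41, 10.41, 9.99, 10.33 and 9.84 in controls, and 10.68, 10.80 and 11.003 at the lowest, median and highest of the 3-day birds. The treated birds were close together and all above the controls, which spread more widely. The rise was 0.62 ± 0.15 (SE; 1.54-fold; limma adjusted p = 0.0336). The adjusted p was 0.0511 after each array was centred on its median, and 0.0514 to 0.108 without control replicate 3 or 5 or 3-day replicate 1, 3, 4 or 5.

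BRINP1 encodes a neural protein that is induced by retinoic acid and, in rodents, slows the cell cycle as neurons differentiate. Controls measured 9.65, 10.25, 10.10, 10.35 and 10.17, and the 3-day birds 10.17, 10.78 and 11.42 at the lowest, median and highest. Replicate 2 of the 3-day birds, at 10.17, lay within the controls, and the other 5 lay above them. The rise was 0.70 ± 0.17 (SE; 1.62-fold; limma adjusted p = 0.0263). The adjusted p was 0.062 after centring and 0.0651 to 0.13 without control replicate 1 or 3 or 3-day replicate 3 or 4.

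ABL1 encodes a tyrosine kinase that acts on the actin cytoskeleton, in axon guidance and, in the nucleus, in the response to DNA damage. Controls lay at 8.12, 7.97, 7.93, 8.13 and 7.85. The 3-day birds fell into separate levels, with replicates 1, 3 and 4 at 6.82, 6.87 and 6.91 and replicates 2, 5 and 6 at 7.50, 7.82 and 7.58. All 6 were below all controls. The change was -0.75 ± 0.17 (SE; limma adjusted p = 0.0179), and the adjusted p was 0.0576 to 0.062 without control replicate 1 or 3-day replicate 1, 3 or 4.

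ACTR10 encodes a subunit of dynactin, the partner of the motor dynein in transport along microtubules. Controls measured 10.59, 10.72, 10.84, 10.32 and 10.83. The 3-day birds divided as for ABL1, with replicates 1, 3 and 4 at 9.60, 9.45 and 9.61 and replicates 2, 5 and 6 at 10.26, 10.62 and 10.16. Replicate 5 was inside the range of controls. The change was -0.71 ± 0.18 (SE; limma adjusted p = 0.0336), which did not pass without any 1 of control replicates 1, 2, 3 and 5 and 3-day replicates 1, 3 and 4 (adjusted p 0.0739 to 0.113).

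Of 13 measured cytoskeleton genes, PLEK2 was called higher and ACTR10 lower, and the median log2 change was -0.14. Over all named genes 0.718% passed, which stands beside this count and those of the other lists. CLIP2, a linker of microtubule ends, measured -0.51 with no overlap (adjusted p = 0.262). Of 12 genes of axon growth and guidance, BTBD3 was called higher and ABL1 lower, 8 lay above 0 and the median was 0.17; GAP43, a growth cone protein, measured -0.33 (adjusted p = 0.167). BRINP1 was the 1 called gene of 11 that mark newborn neurons or regulate their differentiation (median -0.04). MEIS1, a homeobox factor, measured -0.45 with no overlap (adjusted p = 0.102), and DLX1, a factor of inhibitory neurons, 0.37 (adjusted p = 0.448).

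**Figure D2:**
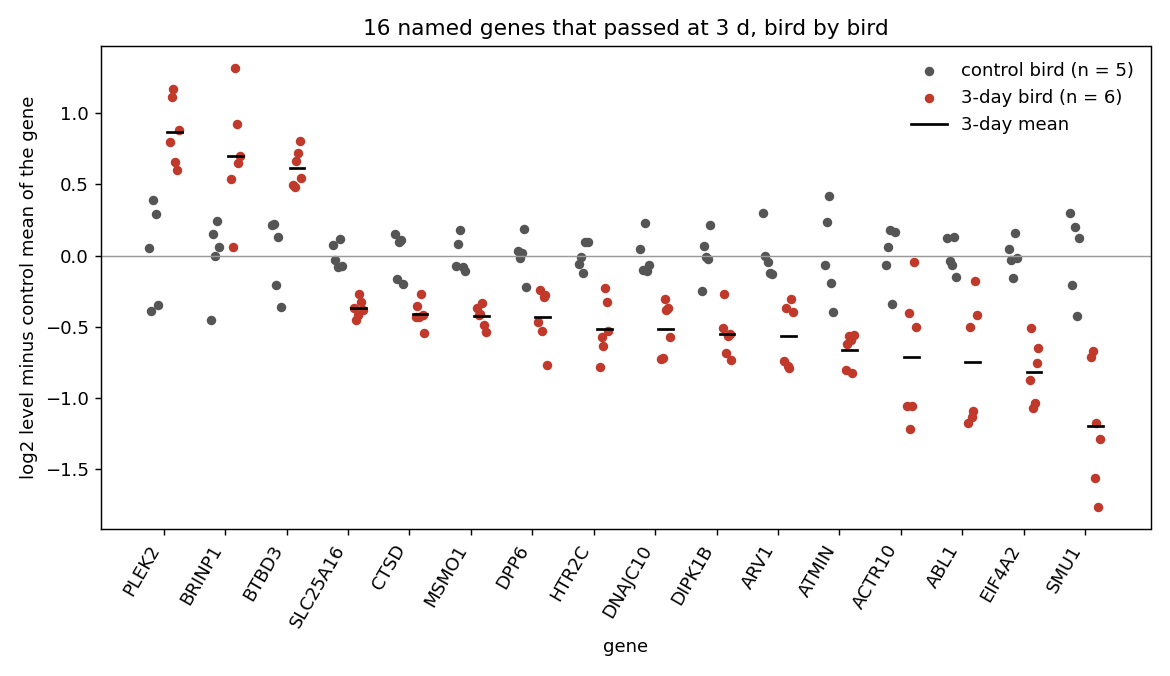
For each of the 16 named genes that passed, points give the log2 level of each bird minus the mean of the 5 controls, with controls in grey, the 6 birds of 3 d in red and their mean as a black line. The groups overlap for BRINP1 and ACTR10, and ABL1 and ACTR10 show 3 birds well below the others.

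Both called genes of sterol handling were lower. ARV1 encodes a protein of the endoplasmic reticulum needed for sterol traffic. Its levels were 7.64, 7.33, 7.29, 7.21 and 7.21 in controls, and 6.54, 6.77 and 7.03 at the lowest, median and highest at 3 d. The groups did not overlap, and 3-day replicates 1, 3 and 4 were again the lowest, at 6.60, 6.56 and 6.54. The change was -0.56 ± 0.12 (SE; limma adjusted p = 0.012), with an adjusted p of 0.0617 without control replicate 1.

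MSMO1 encodes a methylsterol oxidase that removes methyl groups in cholesterol synthesis. Controls measured 11.63, 11.78, 11.88, 11.62 and 11.60, and 3-day birds ran from 11.17 through a median of 11.29 to 11.37. Its 6 treated birds were tightly grouped below the controls. The change was -0.43 ± 0.10 (SE; limma adjusted p = 0.018), and without control replicate 2 or 3 the adjusted p was 0.0571 to 0.0793. These were 2 of 6 measured genes of that list, where 0.718% of all named genes passed. Of the 6 genes, 4 lay below 0 and 2 above, FDFT1 at 0.05 and NPC1 at 0.12. On all 11 arrays 5 of the 6 stood above the 5th percentile. ABCA1, which exports cholesterol, measured -0.35 (adjusted p = 0.419). The median of the list was -0.30, the lowest of the lists with 3 or more measured genes outside the cell markers.

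ATMIN, a zinc finger factor that binds the kinase ATM and regulates transcription, was called with ABL1 among 12 genes of the DNA damage response. Controls lay at 8.75, 9.05, 9.24, 8.63 and 8.42, and 3-day birds between 7.99 and 8.26 with a median of 8.21. The 6 treated birds were close together and all below the controls. The change was -0.66 ± 0.15 (SE; limma adjusted p = 0.018), with an adjusted p of 0.0696 to 0.0903 without control replicate 2 or 3. The other 10 genes were not called, and the median of the list was -0.04. Over all named genes 0.718% passed, and ABL1 is counted with axon growth and guidance as well. RAD54B, which acts in recombination repair, measured 0.40 (adjusted p = 0.263).

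Receptors and channels contributed HTR2C and DPP6. HTR2C encodes a serotonin receptor coupled to phospholipase C. Controls measured 7.65, 7.70, 7.59, 7.80 and 7.81, and 3-day birds 6.92, 7.16 and 7.48 at the lowest, median and highest. All treated birds were below all controls. The change was -0.51 ± 0.12 (SE; limma adjusted p = 0.018), with an adjusted p of 0.0519 after centring and 0.0514 to 0.0593 without 3-day replicate 1 or 3. At the other durations the gene measured -0.72 at 1 h, -0.53 at 3 h, -0.60 at 8 h, -0.44 at 7 d and -0.53 at 14 d, all against the same controls.

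HTR2C was the 1 called gene among 11 receptors for serotonin, dopamine, noradrenaline and acetylcholine, of which 6 lay above 0. CHRNA9, a nicotinic receptor subunit, measured 0.96 with no overlap (adjusted p = 0.191), at 4.66 ± 0.42 (SD, n = 6) against 3.70 ± 0.32 (n = 5), with 2 of the 11 values under the 5th percentile of their array. CHRNB3, another nicotinic subunit, measured 0.43 (adjusted p = 0.454).

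DPP6 encodes an auxiliary subunit of A-type potassium channels. Controls lay at 8.26, 8.21, 8.24, 8.41 and 8.01, and 3-day birds at 7.46, 7.85 and 7.98 at the lowest, median and highest, just below the lowest control. The change was -0.43 ± 0.11 (SE; limma adjusted p = 0.0354). It did not pass after centring (adjusted p = 0.0926), nor without any 1 of control replicates 1 to 4 and 3-day replicates 1, 3 and 6 (0.0747 to 0.109). Of 15 pore-forming potassium channel genes limma called none (1 at an unadjusted p under 0.05), 12 lay below 0 and the median was -0.13, with KCNT1, a sodium-activated channel, at -0.29 (adjusted p = 0.303).

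The 3 further called genes serve the lysosome, the mitochondrion and the endoplasmic reticulum. CTSD encodes the lysosomal protease cathepsin D. Controls measured 11.07, 10.76, 11.02, 11.03 and 10.72, and 3-day birds 10.38, 10.50 and 10.65 at the lowest, median and highest, without overlap. Its change was -0.41 ± 0.09 (SE; limma adjusted p = 0.0214), with an adjusted p of 0.0574 after centring and 0.0512 to 0.0919 without control replicate 1, 3 or 4 or 3-day replicate 3.

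SLC25A16, a carrier of the inner mitochondrial membrane, measured 10.32, 10.22, 10.17, 10.37 and 10.18 in controls and 9.80, 9.88 and 9.98 at the lowest, median and highest at 3 d. It had a small change and a small spread, with SDs of 0.09 (n = 5) in controls and 0.07 (n = 6) at 3 d. The change was -0.37 ± 0.09 (SE; limma adjusted p = 0.0219), and the adjusted p was 0.0536 to 0.0791 without control replicate 1 or 4 or 3-day replicate 3. Of 12 genes of mitochondrial respiration limma called none (3 at an unadjusted p under 0.05), with 6 above 0 and 6 below. The 3 were all lower: ATP5MC3 (-0.37), ATP5F1A (-0.37) and COX7A2L (-0.26), with limma adjusted p of 0.231 to 0.43.

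DIPK1B, a protein with a divergent kinase domain, measured 6.56, 6.87, 6.80, 6.79 and 7.02 in controls and 6.08, 6.25 and 6.54 at the lowest, median and highest at 3 d. The highest treated bird lay just under the lowest control. The change was -0.55 ± 0.13 (SE; limma adjusted p = 0.0257), with an adjusted p of 0.0589 after centring and 0.0524 to 0.0722 without control replicate 2, 3 or 5 or 3-day replicate 3, 4 or 6.

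The genes through which testosterone acts were then read. ESR1, the estrogen receptor alpha, measured 7.47 ± 0.32 (SD, n = 5) in controls, between 7.12 and 7.78. At 3 d it measured 6.54 ± 0.69 (n = 6), with 5.30 at the lowest, 6.56 in the median and 7.24 at the highest. The groups overlapped, and replicate 2 of the 3-day birds was the lowest. The log2 difference was -0.93 ± 0.25 (SE; limma adjusted p = 0.0512), which did not pass. Over 24 alternatives the adjusted p ran from 0.023 to 0.357 and was under the threshold in 6. Set against the mean of the other 5 durations, without controls, ESR1 was lower at 3 d (log2 difference -0.75; limma adjusted p = 0.00498). Against 8 h alone, an alternative chosen after seeing the data, it measured -1.47 (limma adjusted p = 0.00143). ESR1 was highest at 8 h, at 0.54 against control. It measured -0.36 at 1 h, -0.60 at 3 h, 0.06 at 7 d and -0.53 at 14 d, and passed at none of these durations.

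Among enzymes that convert testosterone, SRD5A2, which makes the more potent androgen dihydrotestosterone, measured -0.06 at 3 d against control (limma adjusted p = 0.953). CYP19A1, the aromatase, measured 7.48 ± 0.16 (SD, n = 5) in controls and 7.60 ± 0.16 (n = 6) at 3 d, a difference of 0.12 ± 0.12 (SE; limma adjusted p = 0.794). Of 5 measured genes of sex steroid receptors and coregulators limma called none (at an unadjusted p under 0.05 only ESR1), and of 5 of steroid synthesis none at either threshold. EGR1, an immediate early gene that songbird HVC induces with singing, measured 8.62 ± 0.06 in controls and 8.52 ± 0.21 at 3 d (difference -0.09, adjusted p = 0.939), and none of the 5 genes in its list passed either threshold. ESR2, SRD5A1, BDNF, VEGFA, DCX and PVALB were not among the 2227 genes analysed here.

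Several gene groups linked to growth and signalling had no member called by limma. At an unadjusted p under 0.05 there were 3 of 14 neuropeptide and receptor genes, 1 of 9 matrix genes and 1 of 6 glutamate receptor genes. There were also 0 of 10 cell cycle genes, 4 of 13 genes of glycolysis and the citrate cycle and 5 of 15 genes listed with growth factors and their receptors. The 5 were FGF2, NRG1, NTF3, GAP43 and GRB10, of which GAP43 and GRB10 encode neither a growth factor nor a receptor. Over all transcripts the share was 11.6%, which also stands beside such counts for the other lists. ADCYAP1, the neuropeptide PACAP, measured 0.76 (adjusted p = 0.0636), at 8.80 ± 0.34 (SD, n = 6) against 8.04 ± 0.38 (n = 5), and TACR2, a tachykinin receptor, measured -0.63 with no overlap (adjusted p = 0.0755). These were the nearest to the threshold in the first group.

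Of 9 genes of the extracellular matrix, 7 lay above 0 with a median of 0.22; COL12A1, a fibril-associated collagen, measured 0.95 (adjusted p = 0.122), and TIMP3, a metalloproteinase inhibitor, 0.38 (adjusted p = 0.454). Of 6 glutamate receptor and scaffold genes, 5 lay above 0 with a median of 0.15, among them GRIN2B, an NMDA receptor subunit, at 0.37 (adjusted p = 0.231) and GRIA2, an AMPA receptor subunit, at 0.22 (adjusted p = 0.601). The 10 cell cycle genes all lay below 0 with a median of -0.12, from BIRC5, a mitotic regulator, at -0.35 (adjusted p = 0.783) upward. For comparison, the median was -0.03 over the 2227 named genes. Of the 10 cell cycle genes, 8 stood above the 5th percentile of every one of the 11 arrays, and MAD2L1 lay under it on all 11.

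PDHA1, a subunit of the pyruvate dehydrogenase that feeds the citrate cycle, measured -0.79 (adjusted p = 0.123), and PDK3 and PDK4, kinases that inhibit that enzyme, measured -0.44 and -0.45 (adjusted p 0.122 and 0.146); none of the 13 genes of their list was called. FGF2, a growth factor, measured 0.34 (adjusted p = 0.158) and NRG1, a ligand of ErbB receptors, 0.51 (adjusted p = 0.262). None of the 15 genes listed with growth factors and their receptors was called. FLT1, a receptor for vascular growth factors, measured 0.21 (adjusted p = 0.639). GAD1, which makes the inhibitory transmitter GABA, measured -0.31 (adjusted p = 0.295).

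**Figure D3:**
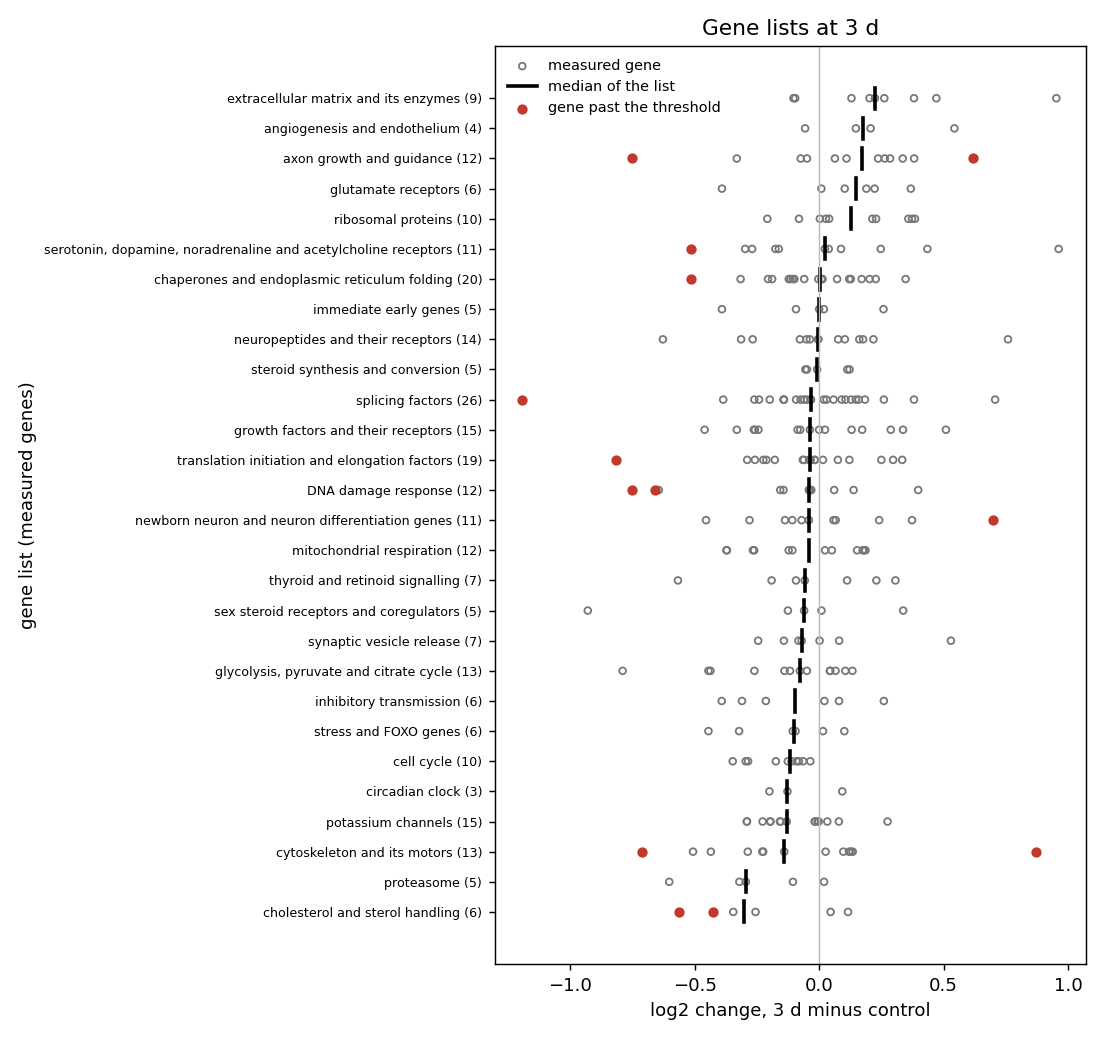
Each row is a gene list with the number of its measured genes, the horizontal axis is the log2 change at 3 d against control, open circles are genes, red points genes past an adjusted p of 0.05 and black bars medians. The medians run from -0.30 for sterol handling to 0.22 for extracellular matrix.

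Markers of the cell types that the tissue could hold were read in the same way. Of 7 measured neuron markers, 4 of astrocytes, 3 of oligodendrocytes, 3 of microglia and leukocytes, 2 of endothelium and mural cells, 1 of erythrocytes and 5 of ependyma and choroid plexus, none was called by limma (3 at an unadjusted p under 0.05). The mean level of the microglia list ran from 7.06 to 8.23 over control birds and from 7.09 to 7.59 over 3-day birds. In limma LAPTM5 measured -0.34 (adjusted p = 0.557) and LY86 -0.32 (adjusted p = 0.441). SPI1, the remaining gene of that list, went the other way at 0.15 (limma adjusted p = 0.946) and stood at 9.06 in control replicate 1. The mean level of the neuron list ran from 8.66 to 9.29 over control birds and from 8.94 to 9.25 over 3-day birds. In it, 3 genes lay above 0 and 4 below, with a median log2 change of -0.08. UCHL1, the highest of them, measured 2.95 ± 1.10 (SD, n = 5) in controls and 4.83 ± 1.07 (n = 6) at 3 d. The difference was 1.88 ± 0.67 (SE; limma adjusted p = 0.187), with overlapping groups and 5 of the 11 values under the 5th percentile of their arrays. The mean level of the oligodendrocyte list ran from 9.00 to 9.32 in controls and from 9.12 to 9.39 at 3 d. That of the astrocyte list ran from 6.57 to 6.61 and from 6.42 to 6.63. Of the markers of HVC, ESR1, CALB1 and NEFM stood above the 5th percentile of all 11 arrays. Most transcripts do so by the definition of that percentile, so this does not show that the tissue was HVC. The part of cell makeup in the called genes was not tested.

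Most called transcripts could not be given a gene. Of the 273, 253 did not match a gene, and 4 matched one without an official symbol. The greatest rise was at ENSTGUT00000002863, a zebra finch Ensembl identifier. It measured 4.55, 7.38, 7.38, 3.85 and 4.99 in controls and 7.65, 7.79 and 8.04 at the lowest, median and highest at 3 d. Controls were split over a wide range, and all treated birds lay above them, for a change of 2.19 ± 0.38 (SE; limma adjusted p = 0.00227). The SD was 1.65 (n = 5) in controls and 0.15 (n = 6) at 3 d. The SE and p rest on a variance shared by all 7 groups, so they do not reflect the wide spread of the controls alone. ENSTGUT00000000366 rose by 2.06 ± 0.41 (SE; limma adjusted p = 0.00902), with 1 treated bird inside the range of controls.

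The greatest fall was at ENSTGUT00000008503, with 10.10, 10.10, 9.77, 10.08 and 10.05 in controls and 7.52, 8.21 and 8.94 at 3 d. Here the controls were close together and the treated birds spread widely below them. The change was -1.84 ± 0.33 (SE; limma adjusted p = 0.00335). ENSTGUT00000002216 changed by -1.24 ± 0.25 (SE; limma adjusted p = 0.0102), also without overlap.

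How the 3-day level stood among the treated groups was tested against the mean of the other 5 durations, a contrast that uses no control. The fit called 8536 transcripts (32.8%), 1931 higher at 3 d (7.41%) and 6605 lower (25.3%). Their median difference over all transcripts was -0.12, and array medians ran from 7.57 at 3 d to 7.82 at 14 d. With each array centred on its median the split was 3599 higher and 2704 lower, and with quantile normalization 2661 and 3433. When array medians were a covariate, 185 were called. That covariate differs between the groups and so overlaps with the contrast. A call lost in that fit does not show that a difference is absent. Bird numbers at 1 h, 3 h, 7 d and 14 d lie in a range apart from that at 3 d, and those at 8 h overlap it. Against 8 h alone 108 transcripts were called (0.414%), and none of the 16 named genes, of which 2 had an unadjusted p under 0.05.

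Of the 16 named genes, 6 differed from the other durations, beside 37.6% of all named genes. BTBD3 was higher by 0.49, and SMU1 (-0.91), ACTR10 (-0.50), ATMIN (-0.37), ARV1 (-0.29) and MSMO1 (-0.25) were lower, with limma adjusted p from 0.00256 to 0.014. After centring, ATMIN, ARV1 and MSMO1 did not pass (adjusted p 0.0794, 0.0948 and 0.208), and in the fit with array medians as covariate only SMU1 of the 16 did (adjusted p = 0.0407). In that fit, whose covariate overlaps with the contrast, BTBD3 measured 0.43, ACTR10 -0.47, ATMIN -0.23, MSMO1 -0.22 and ARV1 -0.11. For BTBD3 the change against control was 0.62 at 3 d and 0.79 at 8 h, and -0.38 at 3 h, -0.11 at 7 d and 0.11 at 14 d. SMU1 measured -0.90 at 8 h and -0.01 at 1 h, -0.16 at 3 h, -0.12 at 7 d and -0.22 at 14 d. ACTR10 measured -0.94 at 8 h and -0.29 at 1 h, -0.26 at 3 h, 0.18 at 7 d and 0.27 at 14 d. ATMIN measured -0.42 at 8 h and -0.05 at 1 h, -0.58 at 3 h, -0.20 at 7 d and -0.20 at 14 d. EIF4A2, PLEK2, HTR2C and DNAJC10 are given above. The remaining called genes also moved in the same direction at the other durations. ABL1 ran from -0.33 at 7 d to -0.78 at 3 h, and DIPK1B from -0.31 at 7 d to -0.61 at 3 h. DPP6 ran from -0.18 at 7 d to -0.54 at 3 h, and SLC25A16 from -0.065 at 8 h to -0.44 at 1 h. CTSD ran from -0.14 at 14 d to -0.44 at 7 d, and BRINP1 from 0.14 at 1 h to 0.86 at 7 d. All these values share the 5 control birds.

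**Figure D4:**
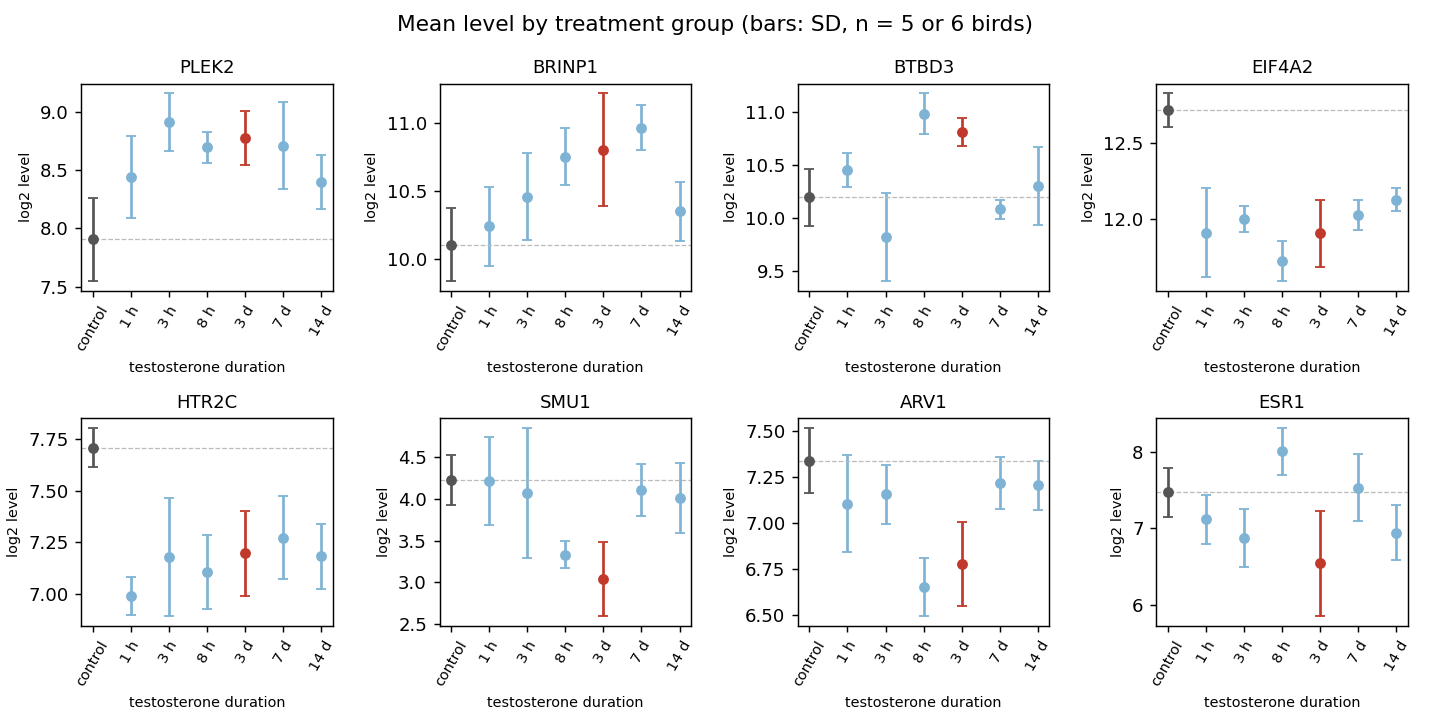
Mean log2 level in each treatment group for 8 genes, with the SD as bars (n = 5 or 6 birds), controls in grey, 3 d in red and the control mean as a dashed line. EIF4A2 and HTR2C lie below and PLEK2 above the control mean at every duration, while BTBD3, SMU1 and ARV1 stand off it most at 8 h and 3 d.

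Among genes named for the size of their difference from the other durations, UCHL1, a deubiquitinase of neurons, measured 1.30 higher at 3 d (adjusted p = 0.0428), with 5 of the 11 values of 3-day and control birds under the 5th percentile of their arrays. NUDCD3, a cofactor of the dynein complex, was higher by 1.08, TMEM63A, a mechanically gated channel, by 0.95, PPP1R21 by 0.77, and NARS2, the mitochondrial asparaginyl-tRNA synthetase, by 0.73. ACTC1, cardiac actin (-0.96), STAM, an endosomal sorting adaptor (-0.92), PDHA1 (-0.91) and FANCB, of the Fanconi anemia pathway (-0.85), were lower. For FANCB, 10 of the 11 values of 3-day and control birds lay under the 5th percentile of their arrays. None of these 9 genes passed against control in limma (5 had an unadjusted p under 0.05). There STAM measured -0.67 with no overlap (adjusted p = 0.187). None of the 9 genes passed with array medians as covariate. In that fit NUDCD3 measured 0.91, UCHL1 0.99, TMEM63A 0.42, NARS2 0.34 and PPP1R21 0.14 against the other durations, and FANCB -0.41, STAM -0.35, PDHA1 -0.35 and ACTC1 -0.27. Against 8 h alone, in the fit without that covariate, none of the 9 genes passed (limma adjusted p of 0.772 or more). The differences from 8 h were 0.04 for UCHL1, 0.22 for NUDCD3, 0.43 for TMEM63A, 0.41 for PPP1R21 and 0.39 for NARS2. They were -0.13 for ACTC1, -0.06 for STAM, 0.12 for PDHA1 and -0.16 for FANCB.

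**Figure D5:**
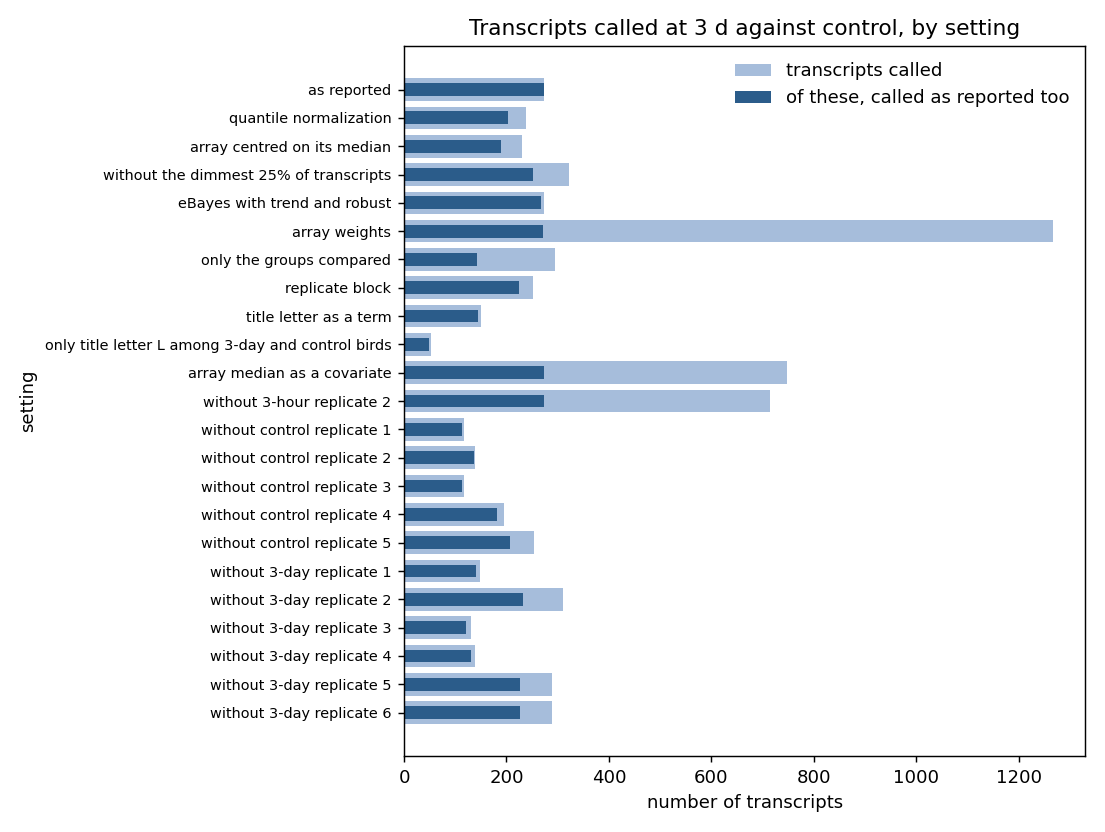
Bars give the number of transcripts called at 3 d against control under each setting drawn, all at an adjusted p under 0.05 (light) and how many of these are among the 273 reported (dark). The counts drawn run from 53 with letter L birds only to 1267 with array weights.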

How the data were processed

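HVC RNA was amplified, labelled and hybridised to Affymetrix arrays, per the labels' protocols. The deposited values, 0.77 to 14.09, are log2 values computed by the authors (the log scale was read from the values); the submitters' processing notes list affy and Affymetrix Expression Console, while the sources used here do not state how probes were summarised and scaled. Values were used as deposited. Of 26061 identifiers, 2471 matched a gene of a zebra finch RefSeq table, 2235 of them with an official symbol (2227 genes; the brightest of several identifiers was used).

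All 39 arrays entered a limma fit (version 3.58.1, R 4.3.3) with 7 group means, with eBayes and Benjamini-Hochberg adjustment over all transcripts; tests were two-sided. A common variance over groups was used since 6 against 5 birds leave few degrees of freedom. Precision is limited by the number of arrays. The text names the called genes, the members of each list with the lowest p (up to 3), those with the largest difference from other durations (up to 5 each way), fixed names and 2 unmatched transcripts each way. Members and lists (37, with 301 measured genes) were chosen with earlier results of these data known, and lists were not tested. Replicate numbers were not used to pair birds in this fit (r of deviations of same-numbered birds -0.02 to 0.34). Tested on simulated data for 3 d against control, the fit found 40.3% of planted log2 changes of 0.5, 86.6% of those of 1 and 100% of those of 2, with 11 other calls among 26061. Whether these rates hold for the measured arrays was not tested. Plots used matplotlib 3.10.9 and pandas 2.3.3 under Python 3.11.15. Results of 3 genes that the naming rule would give are not reported here. No coordinates or sequences were used.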

Additional observations from a re-analysis of the deposited data

Results flagged for a closer look

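Of 210 sets of values tested (a gene or the array median in the 3-day or in the control birds), 12 had 1 bird far from the others of its group, by a gap that passes Dixon's critical value for its share of the range; chance alone does so in about 1 in 20. None of the 16 called genes was among them. In controls, replicate 3 was low for aromatase CYP19A1 (7.21), for RPS20 (8.10) and for the cilium gene RSPH9 (6.18). Replicate 2 was low for PPP1R21 (4.72) and high for the oligodendrocyte gene CLDN11 (8.09) and the leukocyte gene LAPTM5 (8.12). Replicate 4 was high for UCHL1 (4.89) and low for the clock factor gene TEF (11.10). Replicate 5 was high for ADCYAP1 (8.70), and replicate 1 for SPI1 (9.06), a factor of myeloid cells. In the 3-day birds, replicate 5 was low for RPS20 (8.60) and replicate 1 high for RBP4 (8.36), a retinol carrier.

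Among the called genes and the fixed names, 9 had a 3-day level that differed from the mean of the other 5 durations in limma: BTBD3 (0.49), SMU1 (-0.91), ACTR10 (-0.50), ATMIN (-0.37), ARV1 (-0.29), MSMO1 (-0.25), ESR1 (-0.75), CYP19A1 (-0.30) and EGR1 (-0.53). The 3-day birds share neither the range of bird numbers nor the array medians of most of these groups, and the part of the number range was not tested. With arrays centred on their medians, BTBD3, SMU1, ACTR10, ESR1 and EGR1 passed, and ATMIN, ARV1, MSMO1 and CYP19A1 did not (CYP19A1 at -0.17, adjusted p = 0.0728). With array medians as a covariate, which overlaps with this contrast, SMU1 and ESR1 passed. Against 8 h alone, in the fit without that covariate, only ESR1 of the 9 passed (-1.47, limma adjusted p = 0.00143). There CYP19A1 measured 0.03 and EGR1 -0.04. EGR1 stood at 8.52 at 3 d, 8.56 at 8 h and 8.78 to 9.60 at the other durations. CYP19A1 stood at 7.60 at 3 d, 7.58 at 8 h and 7.92 to 8.09 at the other durations. ESR1 stood at 6.54 at 3 d, 8.01 at 8 h and 6.88 to 7.53 at the other durations.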

How the results depend on the processing

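The 273 calls at 3 d became 238 with quantile normalization, 230 with arrays centred on their medians, 323 without the dimmest 25% of transcripts (DNAJC10 and SMU1 fell under that filter and were not tested), 274 with trend and robust moderation and 294 with only the 2 groups in the fit, of which 143 were among the 273. They were 1267 with array weights, 748 with the array median as a covariate, 714 without 3-hour replicate 2, 151 when the title letter was a term, 53 with letter L birds only, 46 at an adjusted p under 0.01 and 125 with a fold of at least 1.5. Leaving out 1 array at a time gave 117 to 310. With the replicate number as a block there were 252 calls; ACTR10, DNAJC10 and DPP6 did not pass (adjusted p 0.0597, 0.0514 and 0.0687), and the other 13 named genes did. Same-numbered birds had correlations of deviations from -0.02 to 0.34. Differently numbered birds were not set beside them, so these values do not settle whether the numbers pair birds.

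The 8536 calls against the other durations became 5291 with the letter term, 185 with the array median as a covariate, 2758 at an adjusted p under 0.01, 542 with a fold of at least 1.5, 9363 without 3-hour replicate 2 and 108 against 8 h alone (an alternative chosen after seeing the data). They were 5001 to 8987 with 1 of the 11 arrays left out, with 5616, 5001 and 5522 without 3-day replicates 3, 4 and 5.

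No called gene changed sign. Signs turned in genes that were not called: FABP7 (0.00050, quantile normalization), ANGPT1 (-0.0023, array weights), SPI1 (-0.37) and SRD5A2 (0.044) with letter L birds only. With 1 array left out, SGK1 ran from -0.16 to 0.011, SPI1 from -0.077 to 0.68, ANGPT1 from -0.044 to 0.24 and NEFM from -0.065 to 0.31, and the difference of array medians from -0.037 to 0.013. List medians ran from -0.092 to 0.041 for serotonin, dopamine, noradrenaline and acetylcholine receptors, -0.033 to 0.055 for neuropeptides, -0.056 to 0.026 for splicing factors and -0.38 to -0.20 for microglia. The cause of these differences was not tested.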

Other observations

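Replicates 1, 3 and 4 of the 3-day birds were the 3 lowest of the 6 for EIF4A2, ABL1, ACTR10 and ARV1, and the question was put to all transcripts after this was seen. They were the 3 lowest in 54 of the 166 transcripts called lower (32.5%) and in 3720 of all 26061 (14.3%), and the 3 highest in 32 of the 107 called higher (29.9%) and in 2711 of all (10.4%). Among the pairs of 3-day arrays, Pearson's r was 0.991 for replicates 1 and 4 and for 3 and 4, and 0.988 for 1 and 3, and it was 0.993 for replicates 5 and 6 and 0.988 for 2 and 6 and for 4 and 5. The titles give replicates 1 and 3 the letter L and replicate 4 none, and the other 3 one each of L, R and none. What sets these birds apart was not tested.

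Retinoid genes, not described above, held no member called by limma among 7 measured with thyroid genes (1 at an unadjusted p under 0.05). RBP4, which carries retinol in blood, measured 0.31 (limma adjusted p = 0.286) and RARB, a retinoic acid receptor, -0.57 (adjusted p = 0.599) at 3 d against control. AQP1, a water channel of choroid plexus, measured -0.46 (adjusted p = 0.344).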
